A study of Mus musculus with 12 samples.

Results

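A set of 9 genes, 6 for transcription factors that set macrophage identity and 3 for receptor chains of the colony stimulating factors (CSFs), was followed in CD11c+ cells of the infected mouse lung. The members were Pparg, Cebpa, Cebpb, Maf, Irf4, Klf4, Csf1r, Csf2ra and Csf2rb, picked by gene symbol out of 18193 genes measured by at least 1 probe set with a single symbol. All 9 were measured, by 21 probe sets in all, and no filter on low values was applied. The compared groups were IFNAR-/- mice at day 7, wildtype mice at day 7, IFNAR-/- mice at day 14 and wildtype mice at day 14 of Pneumocystis lung infection, with 3 mice and 3 arrays in each. Every mouse had received Pneumocystis into the trachea, so no uninfected level is part of the comparison, and the labels state no age or strain background. IFNAR-/- mice lack the type I interferon receptor in every cell. Cells carrying CD11c, a surface integrin of alveolar macrophages and dendritic cells, were taken from digested lungs with magnetic beads at a stated purity above 90%.

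Granulocyte-macrophage CSF binds a receptor made of CSF2RA and the shared beta chain CSF2RB and drives PPARG, the nuclear receptor that alveolar macrophages need for handling surfactant lipid. The CSF1 receptor serves the survival of macrophages in most tissues. C/EBP alpha and C/EBP beta direct myeloid differentiation and inflammatory genes, MAF is linked to resident macrophages of the interstitium and to IL-10 production, and IRF4 and KLF4 are known for alternative activation by interleukin 4 and for subsets of dendritic cells.

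Each value is the log2 of the deposited ratio of a probe set to about its own median over the 12 arrays, averaged over the probe sets of a gene. A value of 0 is that median and 1 is a doubling, so values can be compared between mice but not between genes, and absence of a gene cannot be read. Differences come from a limma fit over all 18193 genes, are given with their standard error, and were called where the Benjamini-Hochberg adjusted p was under 0.05. In a bulk sample, fewer cells of a type and less RNA per cell cannot be told apart.

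Some arrays stood apart. IFNAR-/- day 7 mouse 3 had median log2 ratios of 2.33 for lung epithelial, 2.84 for endothelial and 2.04 for neutrophil markers. Wildtype day 7 mouse 1 had medians of 1.77 for epithelial and 2.20 for endothelial markers. IFNAR-/- day 14 mouse 2 had the widest spread over probe sets, with an interquartile range of 0.582 against 0.188 to 0.371 on the other arrays. The wildtype day 14 arrays had low poly-A spike-in signals, between -2.70 and -1.88 on the log2 scale, as did IFNAR-/- day 7 mouse 3 (-2.90) and IFNAR-/- day 14 mouse 2 (-1.81). The log2 5′ to 3′ balance of control probe sets was -0.24, -0.18 and -0.91 on the wildtype day 14 arrays. It was -0.52 on IFNAR-/- day 7 mouse 2 and 0.064 to 0.18 on the other arrays. This balance can therefore hardly be told apart from the wildtype day 14 group. Ifnar1 was at -1.38 to -0.26 in IFNAR-/- mice against 0.065 to 0.64 in wildtype mice at day 7, and at -1.01 to 0.39 in IFNAR-/- mice against -0.15 to 0.11 in wildtype mice at day 14. The day 14 groups overlap in this mean of its probe sets. Its second probe set was lower in IFNAR-/- mice without overlap on both days, at -0.63 to 0.0043 against 0.24 to 0.875 at day 14. Its first probe set overlapped on both days. The interferon-stimulated gene Ifit1 was at -3.05 to -1.69 in IFNAR-/- mice against -0.89 to -0.035 in wildtype mice at day 14. At day 7 its groups overlapped. Where the Ifnar1 probe sets lie relative to the disrupted part is not given in the sources used here, so Ifnar1 gives no full check of the labels.

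Irf4 and Klf4 had the largest differences of the 9 genes, Irf4 in IFNAR-/- mice and Klf4 in wildtype mice. Irf4 was 3.77-fold higher at day 14 than at day 7 in IFNAR-/- mice. At day 7 it was 3.09-fold lower in IFNAR-/- than in wildtype mice, a call kept in 3 of 12 fits that left out 1 array. Klf4 was 3.82-fold lower at day 14 than at day 7 in wildtype mice. Pparg, Cebpa and Cebpb fell between day 7 and day 14 in IFNAR-/- mice. In wildtype mice the Pparg difference was -1.15 and was not called. The change of the genotype difference between days was called for 0 of 9 genes, so a call in 1 genotype alone does not show that the genotypes differ. None of the receptor chains was called in any of the 6 comparisons. A probe set assigned to both Csf2rb and Csf2rb2, lowest in the wildtype day 14 mice, was left out of the tests.

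**Figure D1:**
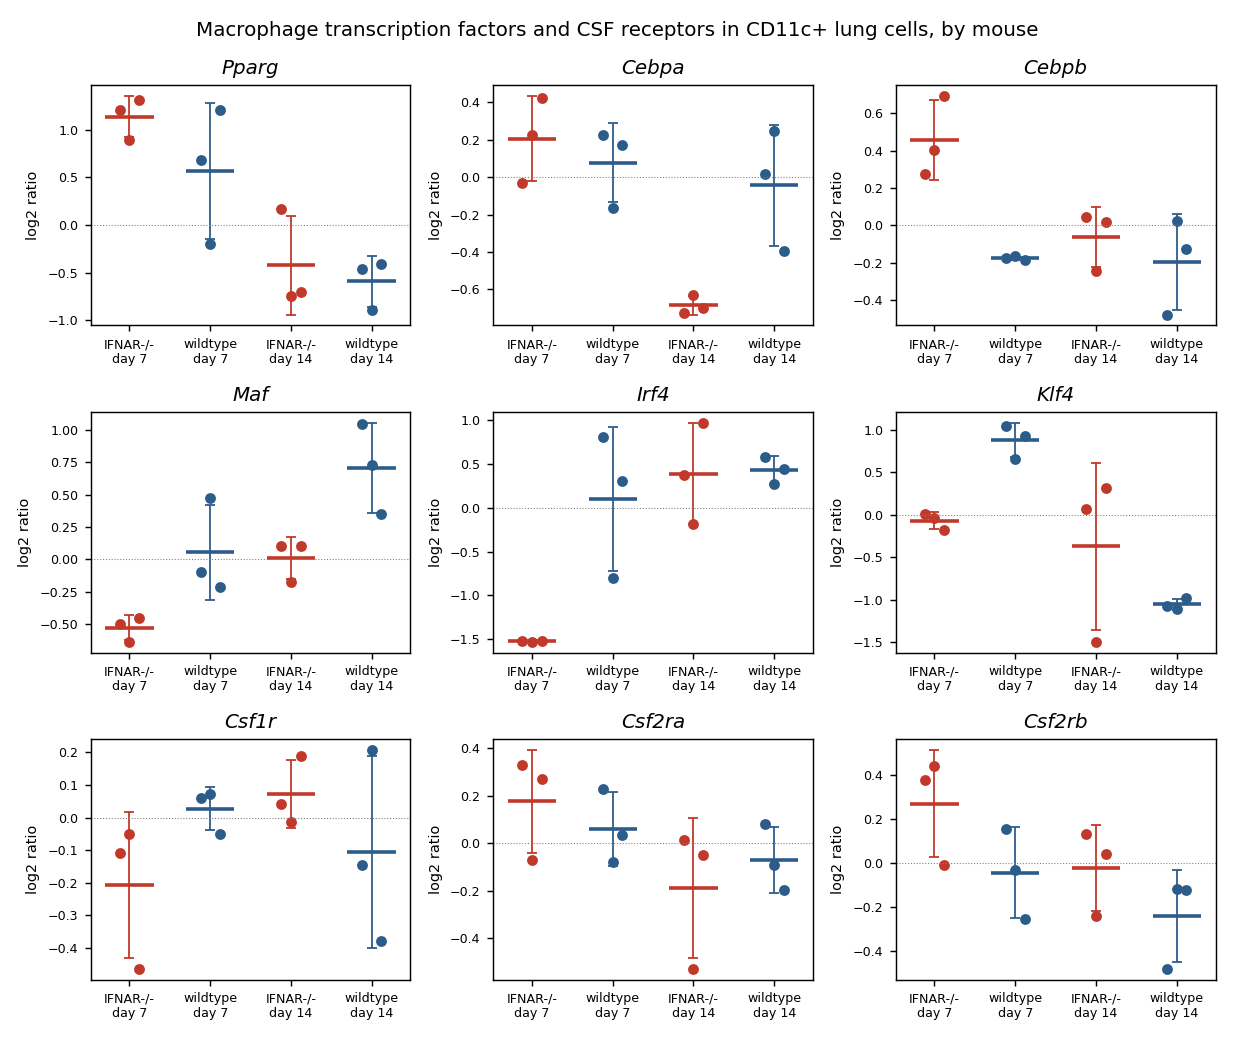
Log2 ratio (y axis, each panel on its own scale) of the 9 genes by genotype and day, with 1 point per mouse, a bar at the mean and error bars of 1 SD (n = 3). Irf4 lies near -1.52 in the 3 IFNAR-/- day 7 mice, below the other groups, and Klf4 lies between -1.11 and -0.98 in the 3 wildtype day 14 mice.

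The bases before the start sites of Irf4 and Klf4 are shown because these genes had the largest differences. The windows are the 250 bases upstream of the start from RefSeq, build GRCm38.p6, for Irf4 chr13:30748983-30749232 on the plus strand and for Klf4 chr4:55532476-55532725 on the minus strand, written 5′ to 3′ along the gene.
Irf4: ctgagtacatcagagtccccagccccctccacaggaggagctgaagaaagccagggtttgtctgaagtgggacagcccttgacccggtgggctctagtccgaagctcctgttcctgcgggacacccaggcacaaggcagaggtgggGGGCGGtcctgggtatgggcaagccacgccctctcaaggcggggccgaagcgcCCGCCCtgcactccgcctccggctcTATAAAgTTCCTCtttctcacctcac
Klf4: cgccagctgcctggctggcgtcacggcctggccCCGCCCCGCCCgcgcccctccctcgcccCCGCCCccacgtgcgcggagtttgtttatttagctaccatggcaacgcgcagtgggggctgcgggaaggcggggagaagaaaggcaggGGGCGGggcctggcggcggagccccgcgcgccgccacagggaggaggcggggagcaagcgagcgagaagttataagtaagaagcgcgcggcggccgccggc
Capitals mark matches of any of 3 motifs on either strand. The motif for SP and KLF family factors was GGGCGG, known as a GC box. The letters searched for a TATA box were TATAAA, and those for the core of a PU.1 site were GAGGAA. Both boxes were added to the search after the sequences had been seen. The Irf4 window holds 2 GC boxes, 1 TATA box 26 to 21 bases before the start and 1 PU.1 core 19 to 14 bases before it. The Klf4 window holds 4 GC boxes, of which 2 share 1 base, and no TATA box or PU.1 core. No match of one motif overlaps a match of another. Among 32851 promoter windows of the same length, 32.7% hold a GC box, 12.4% a TATA box and 23.3% a PU.1 core. The core of the interferon-stimulated response element (GAAANNGAA, in 7.13% of windows), a STAT site (TTCNNNGAA, 7.02%) and an AP-1 site (TGANTCA, 6.75%) had no match in either window. A match in letters is a description and not a measured site. The table holds windows for 6 of the 9 genes.

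Irf4 encodes interferon regulatory factor 4, used by macrophages in alternative activation and by dendritic cells. It had log2 ratios of -1.52, -1.53 and -1.52 in IFNAR-/- mice at day 7, against 0.81, -0.80 and 0.31 in wildtype mice at day 7. By day 14 the ratios were 0.38, -0.18 and 0.97 in IFNAR-/- mice, against 0.58, 0.27 and 0.44 in wildtype mice. The IFNAR-/- day 7 mice were below every other mouse, while the other groups overlapped. The day 14 minus day 7 difference in IFNAR-/- mice was 1.91 ± 0.36 (SE, n = 3 a group, limma adjusted p = 0.00699), and in wildtype mice it was 0.33 ± 0.36 (adjusted p = 0.666). The difference in IFNAR-/- mice was called in each of 12 fits that left out 1 array. At day 7 the IFNAR-/- minus wildtype difference was -1.63 ± 0.36 (limma adjusted p = 0.0384), and at day 14 it was -0.042 ± 0.36 (adjusted p = 0.965). The change between these differences was 1.59 ± 0.51 (limma adjusted p = 0.124) and was not called.

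The day 7 call of Irf4 rested on a small margin. It was kept in 3 of 12 fits that left out 1 array, with adjusted p between 0.00572 and 0.117. Without wildtype day 7 mouse 2, the lowest wildtype mouse, the difference was -2.08 (limma adjusted p = 0.00572), and the change between days was 2.04 (adjusted p = 0.0367) and called. Without wildtype day 7 mouse 1 the difference was -1.28 (limma adjusted p = 0.117). The first probe set read -2.34, -2.42 and -2.51 in IFNAR-/- mice at day 7, against 1.03, -1.55 and 0.069 in wildtype mice at day 7. The second read -0.71, -0.64 and -0.53 in IFNAR-/- mice, against 0.58, -0.051 and 0.54 in wildtype mice. Over the IFNAR-/- day 7 mice the 2 probe sets moved in opposite directions, so their mean varied less than either. Both probe sets were called over time in IFNAR-/- mice, at 2.54 ± 0.50 and 1.29 ± 0.30 (limma adjusted p = 0.00986 and 0.0198), but only the first was called at day 7 (-2.27 ± 0.50, adjusted p = 0.0477). They had opposite signs for the day 14 genotype difference (-0.74 and 0.65) and over time in wildtype mice (1.00 and -0.35), none of these called.

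Klf4 encodes Krüppel-like factor 4, a zinc finger factor of monocyte differentiation and alternative activation. It had 0.0079, -0.037 and -0.18 in IFNAR-/- mice at day 7, against 1.05, 0.66 and 0.93 in wildtype mice at day 7. The day 14 mice had 0.072, -1.49 and 0.32 in IFNAR-/- mice, against -1.07, -1.11 and -0.98 in wildtype mice. The wildtype day 14 mice lay below the wildtype day 7 mice without overlap, and IFNAR-/- day 14 mouse 2 was the lowest of the 12. The day 14 minus day 7 difference was -1.93 ± 0.36 in wildtype mice (limma adjusted p = 0.00906), and both probe sets were called, at -1.31 ± 0.31 and -2.55 ± 0.41 (adjusted p = 0.0293 and 0.00581). In IFNAR-/- mice it was -0.30 ± 0.36 (limma adjusted p = 0.599).

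Poly-A signal was 0.81 to 2.13 on the wildtype day 7 arrays and -2.70 to -1.88 on the wildtype day 14 arrays. It therefore cannot be told apart from time in wildtype mice. The 2 IFNAR-/- arrays with low poly-A signal had Klf4 at -0.18 (day 7 mouse 3) and -1.49 (day 14 mouse 2). With poly-A signal as a covariate the Klf4 difference over time in wildtype mice was -1.33 (limma adjusted p = 0.201). With the 5′ to 3′ balance of the actin and Gapdh control probe sets in the model it was -1.94 (adjusted p = 0.123), neither called. It was called in each of 12 fits that left out 1 array.

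IFNAR-/- day 14 mouse 2 decided the genotype comparisons of Klf4. With all arrays the IFNAR-/- minus wildtype difference was -0.95 ± 0.36 at day 7 and 0.69 ± 0.36 at day 14 (limma adjusted p = 0.230 and 0.303). The change between these was 1.64 ± 0.50 (limma adjusted p = 0.113), and none of the 3 was called. Without that mouse they were -0.95, 1.25 and 2.20 (limma adjusted p = 0.00276, 0.00132 and 0.000821), and all 3 were called, with 2 IFNAR-/- mice left at day 14.

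**Figure D2:**
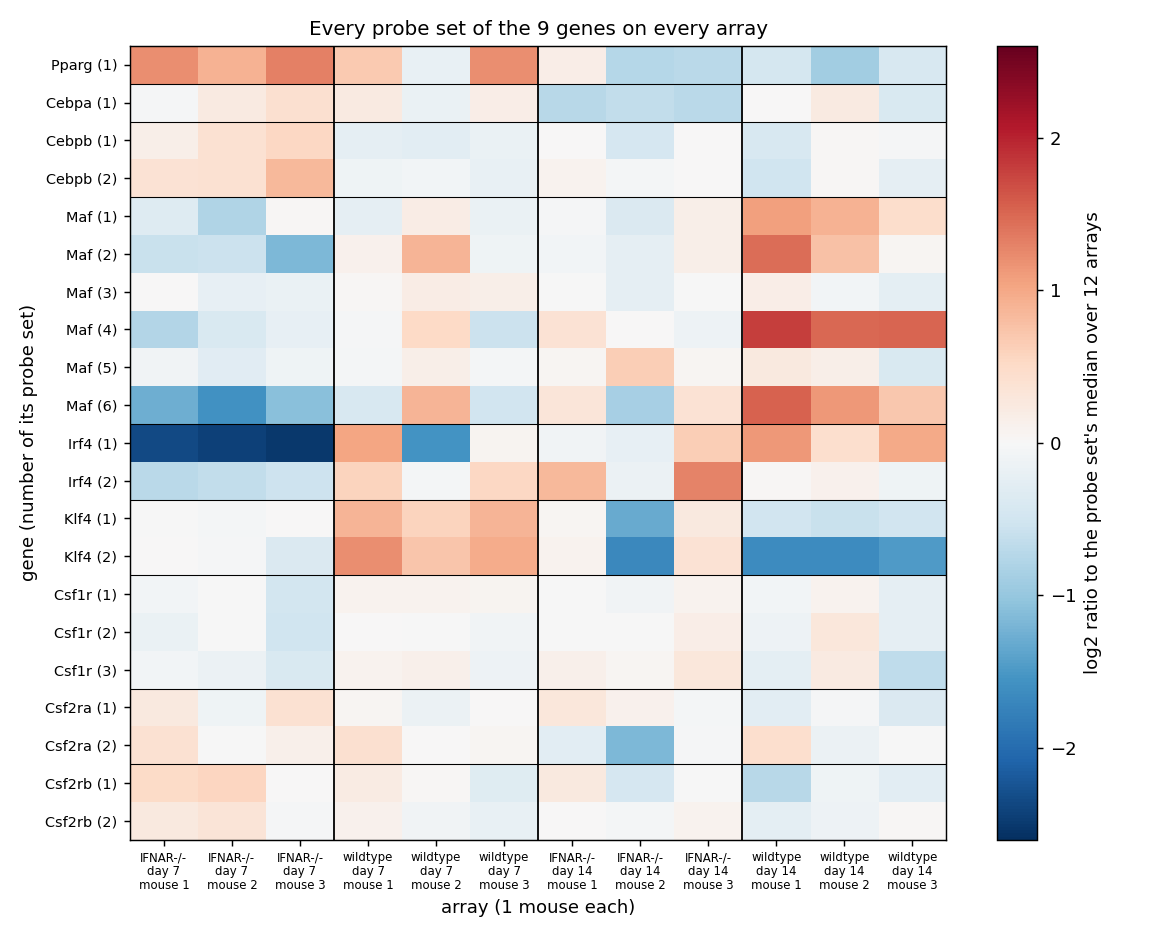
Log2 ratio (colour) of each of the 21 probe sets (rows, grouped by gene) on each of the 12 arrays (columns, grouped by genotype and day). Both Klf4 probe sets are low in the wildtype day 14 mice and in IFNAR-/- day 14 mouse 2, and 2 of the 6 Maf probe sets stay near 0 on most arrays.

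Pparg encodes the fatty acid-sensing nuclear receptor PPAR gamma and had 1 probe set. It had 1.20, 0.90 and 1.31 in IFNAR-/- mice at day 7, against 0.68, -0.20 and 1.21 in wildtype mice at day 7. On day 14 the gene read 0.17, -0.74 and -0.70 in IFNAR-/- mice, against -0.47, -0.89 and -0.41 in wildtype mice. Between days the IFNAR-/- mice did not overlap, and the wildtype mice did not either. The day 14 minus day 7 difference was -1.56 ± 0.33 in IFNAR-/- mice, 2.95-fold lower (limma adjusted p = 0.0129), and -1.15 ± 0.33 in wildtype mice, which was not called (adjusted p = 0.0593). The change between the genotypes was -0.41 ± 0.47 (limma adjusted p = 0.716), with a 95% interval of -1.44 to 0.63. The difference between genotypes was 0.57 ± 0.33 at day 7 and 0.17 ± 0.33 at day 14 (limma adjusted p = 0.547 and 0.833).

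The Pparg call in IFNAR-/- mice held in each of 12 fits that left out 1 array. Without both IFNAR-/- day 7 mouse 3 and IFNAR-/- day 14 mouse 2 it was -1.31 (limma adjusted p = 0.104), and after quantile normalization -1.18 (adjusted p = 0.0606). In wildtype mice it was called without wildtype day 7 mouse 2 (-1.54, limma adjusted p = 0.0178) or without IFNAR-/- day 14 mouse 1 (-1.15, adjusted p = 0.0432), and with mouse number as a block (adjusted p = 0.0288).

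Cebpa encodes C/EBP alpha, needed for the granulocyte and monocyte lineages, and had 1 probe set. It had -0.73, -0.63 and -0.70 in IFNAR-/- mice at day 14, against 0.019, 0.24 and -0.39 in wildtype mice at day 14. At day 7 it had -0.032, 0.22 and 0.42 in IFNAR-/- mice, against 0.22, -0.16 and 0.17 in wildtype mice. The 3 IFNAR-/- day 14 mice were below the other 9. The day 14 minus day 7 difference was -0.89 ± 0.17 in IFNAR-/- mice (limma adjusted p = 0.00816) and -0.12 ± 0.17 in wildtype mice (adjusted p = 0.759). The change between them, -0.77 ± 0.24, was not called (limma adjusted p = 0.121), nor was the day 14 difference between genotypes (-0.64 ± 0.17, adjusted p = 0.0574). That day 14 difference was called without wildtype day 14 mouse 3 (-0.82, limma adjusted p = 0.0356). The time difference in IFNAR-/- mice held in each of 12 fits that left out 1 array, and was -0.81 (limma adjusted p = 0.0514) without both arrays that stood apart in that genotype.

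Cebpb encodes C/EBP beta, an inducible factor of inflammatory genes. It had 0.27, 0.40 and 0.69 in IFNAR-/- mice at day 7, against -0.18, -0.17 and -0.18 in wildtype mice at day 7. At day 14 it had 0.045, -0.24 and 0.019 in IFNAR-/- mice, against -0.48, 0.024 and -0.13 in wildtype mice. The IFNAR-/- day 7 mice were above every other mouse. The IFNAR-/- minus wildtype difference at day 7 was 0.63 ± 0.15 (limma adjusted p = 0.0496), and the day 14 minus day 7 difference in IFNAR-/- mice was -0.52 ± 0.15 (adjusted p = 0.0442). Both lie next to the threshold and were kept in 2 of 12 fits that left out 1 array. Adjusted p ranged from 0.0309 to 0.155 for the day 7 difference and from 0.0273 to 0.145 for the time difference in those fits. Without IFNAR-/- day 7 mouse 3 the values were 0.51 and -0.40 (limma adjusted p = 0.150 and 0.145). Neither probe set of Cebpb was called by itself in these 2 comparisons.

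Maf encodes c-MAF, and its 6 probe sets differed from each other. The gene had -0.50, -0.64 and -0.45 in IFNAR-/- mice at day 7, against -0.098, 0.47 and -0.21 in wildtype mice at day 7. By day 14 the ratios were 0.10, -0.17 and 0.10 in IFNAR-/- mice, against 1.04, 0.73 and 0.35 in wildtype mice. On each day the IFNAR-/- mice were below the wildtype mice without overlap. The mean IFNAR-/- minus wildtype difference over both days was -0.64 ± 0.14 (limma adjusted p = 0.0292). The differences on single days, -0.58 ± 0.20 at day 7 and -0.70 ± 0.20 at day 14, were not called (limma adjusted p = 0.179 and 0.0726). The day 14 difference was called without wildtype day 7 mouse 2 (limma adjusted p = 0.0431). The mean difference was called in 4 of 12 fits that left out 1 array, with adjusted p between 0.0211 and 0.0707, and was -0.64 with mouse number as a block (limma adjusted p = 0.0502).

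Over time Maf differed by 0.54 ± 0.20 in IFNAR-/- mice and 0.65 ± 0.20 in wildtype mice, neither called (limma adjusted p = 0.104 and 0.0734). In wildtype mice it was called without wildtype day 7 mouse 2 (0.86, limma adjusted p = 0.0307) or wildtype day 14 mouse 3 (0.83, adjusted p = 0.0470). The fourth probe set read 0.38, 0.0058 and -0.13 in IFNAR-/- mice at day 14, against 1.79, 1.50 and 1.52 in wildtype mice at day 14. By itself this probe set was called at day 14 (-1.52 ± 0.25, limma adjusted p = 0.0109), over both days (-0.98 ± 0.18, adjusted p = 0.0146) and over time in wildtype mice (1.62 ± 0.25, adjusted p = 0.00496). The first was called at day 14 and over time in wildtype mice (-0.89 ± 0.23 and 0.88 ± 0.23, limma adjusted p = 0.0492 and 0.0451), and the sixth over both days (-1.24 ± 0.28, adjusted p = 0.0386). The 2 probe sets nearest to 0 throughout lay between -0.39 and 0.64 on the 12 arrays, and a mean over 6 probe sets includes them with equal weight.

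The receptor chains lay between -0.53 and 0.44 on the 12 arrays. Csf1r, the receptor of CSF1 and interleukin 34, had -0.11, -0.051 and -0.46 in IFNAR-/- mice at day 7, against 0.059, 0.072 and -0.050 in wildtype mice at day 7. The day 14 mice had 0.040, -0.013 and 0.19 in IFNAR-/- mice, against -0.15, 0.21 and -0.38 in wildtype mice. The day 7 mice did not overlap between genotypes, by the smallest of margins, and the day 14 mice overlapped. Its 6 differences lay between -0.23 and 0.41, with limma adjusted p between 0.251 and 0.940.

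Csf2ra, the chain that binds granulocyte-macrophage CSF, had 0.33, -0.070 and 0.27 in IFNAR-/- mice at day 7, against 0.23, -0.078 and 0.035 in wildtype mice at day 7. On day 14 the gene read 0.013, -0.53 and -0.049 in IFNAR-/- mice, against 0.080, -0.091 and -0.20 in wildtype mice. The groups overlapped on both days. Its 6 differences lay between -0.37 and 0.11, with limma adjusted p between 0.168 and 0.995.

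Csf2rb, the signalling beta chain, had 0.38, 0.44 and -0.0080 in IFNAR-/- mice at day 7, against 0.16, -0.032 and -0.26 in wildtype mice at day 7. At day 14 it had 0.13, -0.24 and 0.041 in IFNAR-/- mice, against -0.48, -0.12 and -0.12 in wildtype mice. The groups overlapped on both days. Its 6 differences lay between -0.29 and 0.31, with limma adjusted p between 0.260 and 0.879. At day 7 the 95% intervals of the genotype difference were -0.57 to 0.10 for Csf1r, -0.25 to 0.47 for Csf2ra and -0.049 to 0.68 for Csf2rb, so differences up to these bounds are not excluded by the fit.

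Csf2rb2, the near-identical neighbour of Csf2rb that serves interleukin 3 in mice, was between -0.36 and 0.38 on the 12 arrays and was not called. A further probe set is assigned to both Csf2rb2 and Csf2rb and was left out of the gene values and the tests. It read 0.050, -0.082 and -0.13 in IFNAR-/- mice at day 14, against -1.16, -0.99 and -1.47 in wildtype mice at day 14. At day 7 it read 0.61, 0.12 and -0.26 in IFNAR-/- mice, against 0.63, 0.39 and 0.15 in wildtype mice. The wildtype day 14 mice were the lowest of the 12 there, and neither gene's own probe sets show values as low.

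The remaining differences of the 6 factors were not called. Over both days the IFNAR-/- minus wildtype difference was -0.83 ± 0.25 for Irf4 (limma adjusted p = 0.0998), 0.38 ± 0.10 for Cebpb (0.0687) and -0.26 ± 0.12 for Cebpa (0.322). It was 0.37 ± 0.24 for Pparg (limma adjusted p = 0.502) and -0.13 ± 0.25 for Klf4 (0.870). Over both days the first Irf4 probe set by itself was called (-1.50 ± 0.35, limma adjusted p = 0.0424), as was the second Cebpb probe set (0.46 ± 0.11, 0.0499). Irf4 as a gene was called over both days without wildtype day 7 mouse 2 (-1.06, limma adjusted p = 0.0162), and Cebpb without IFNAR-/- day 14 mouse 2 (0.43, 0.0422). At day 7 Cebpa differed by 0.13 ± 0.17 (limma adjusted p = 0.892), and at day 14 Cebpb differed by 0.13 ± 0.15 (0.665). Over time in wildtype mice Cebpb differed by -0.019 ± 0.15 (limma adjusted p = 0.964). The change between days was -0.50 ± 0.21 for Cebpb and -0.11 ± 0.28 for Maf (limma adjusted p = 0.241 and 0.883).

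Read against all genes, the counts of called members were these. At day 7, 2 of 9 were called (Cebpb and Irf4), against 2.64% of all genes, and at day 14 0 of 9, against 5.04%, with 2 members at an unadjusted p under 0.05 in that comparison. For the mean over both days 1 of 9 was called (Maf), against 4.19%. Over time 4 of 9 were called in IFNAR-/- mice, against 12.3%, and 1 of 9 in wildtype mice (Klf4), against 7.98%. For the change of the genotype difference 0 of 9 were called, against 2.48%, and 4 members had an unadjusted p under 0.05. The shares of all genes given here and below are at the adjusted threshold. The share at an unadjusted p under 0.05 is not given, so counts at that threshold have no background and cannot be called high or low. In the fit of single probe sets the called shares over all probe sets were 1.79% at day 7, 5.31% at day 14, 3.53% over both days, 10.6% over time in IFNAR-/- mice, 6.93% over time in wildtype mice and 2.42% for the change. All comparisons share arrays with others and 1 estimate of the spread.

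**Figure D3:**
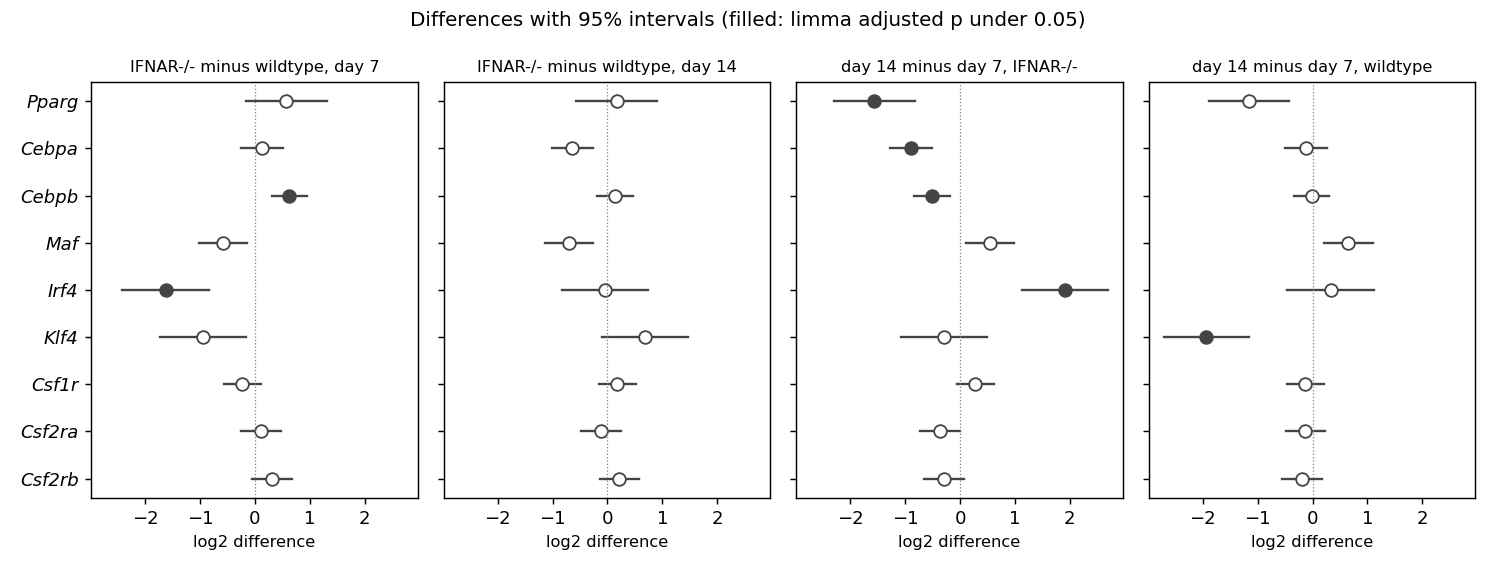
Log2 differences (x axis) of the 9 genes in 4 comparisons, with 95% intervals from the limma fit and filled points where the adjusted p was under 0.05. Filled points are Cebpb and Irf4 at day 7, none at day 14, Pparg, Cebpa, Cebpb and Irf4 over time in IFNAR-/- mice, and Klf4 over time in wildtype mice.

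Most listed target genes of PPARG, which take up, store and burn lipid, were lower at day 14 than at day 7 in IFNAR-/- mice. Of 14 listed and measured, 11 fell and 0 rose over time in IFNAR-/- mice, with a median difference of -1.33, against 8.25% of all genes lower and a median of 0.024 over all genes. In wildtype mice 2 of 14 fell and 0 rose, with a median of -0.078, against 4.1% of all genes lower. The lowest p in IFNAR-/- mice were those of the lipase inhibitor Angptl4 (-1.76 ± 0.19, limma adjusted p = 0.000651), the lipid droplet gene Cidec (-3.71 ± 0.51, 0.00162), the mitochondrial fatty acid carrier enzyme Cpt1a (-1.38 ± 0.19, 0.00183) and the droplet coat gene Plin2 (-1.29 ± 0.19, 0.00203). In wildtype mice the called genes were Cidec (-3.46 ± 0.51, limma adjusted p = 0.00336) and the lipase Lpl (-2.27 ± 0.27, 0.00128). The test of the change between the genotypes called Angptl4 (-2.08 ± 0.27, limma adjusted p = 0.00646) and Plin2 (-1.42 ± 0.26, 0.0235), against 2.48% of all genes. For these 2 genes the time difference was lower in IFNAR-/- than in wildtype mice.

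The count of 11 was 8 to 11 when single arrays were left out, and Cd36, named after its values were seen, has an adjusted p that rounds to 0.05. Between genotypes, Angptl4 and the fatty acid transporter Slc27a1 were higher in IFNAR-/- mice at day 7 (0.98 ± 0.19 and 0.92 ± 0.18, limma adjusted p = 0.0210 and 0.0219), against 2.64% of all genes called in either direction. At day 14 Angptl4 and Plin2 were lower (-1.10 ± 0.19 and -0.80 ± 0.19, limma adjusted p = 0.0114 and 0.0359) and Lpl was higher (1.20 ± 0.27, 0.0312), against 5.04% of all genes called in either direction. Cidec was higher over both days (1.70 ± 0.36, limma adjusted p = 0.0244), against 4.19% of all genes called in either direction.

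Alveolar macrophage markers moved over the same time. Of 10 measured, 3 fell and 1 rose in IFNAR-/- mice, with a median of -0.93, against 8.25% of all genes lower and 4.08% higher. In wildtype mice 5 fell and 0 rose, with a median of -1.11, against 4.1% of all genes lower. Their median log2 ratio per array was -0.40 to 0.043 in IFNAR-/- mice at day 14, against 0.29 to 0.54 at day 7. In wildtype mice it was -0.99 to -0.51 at day 14, against -0.050 to 0.69 at day 7. Their part in the differences of Pparg and its target genes was not tested.

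**Figure D4:**
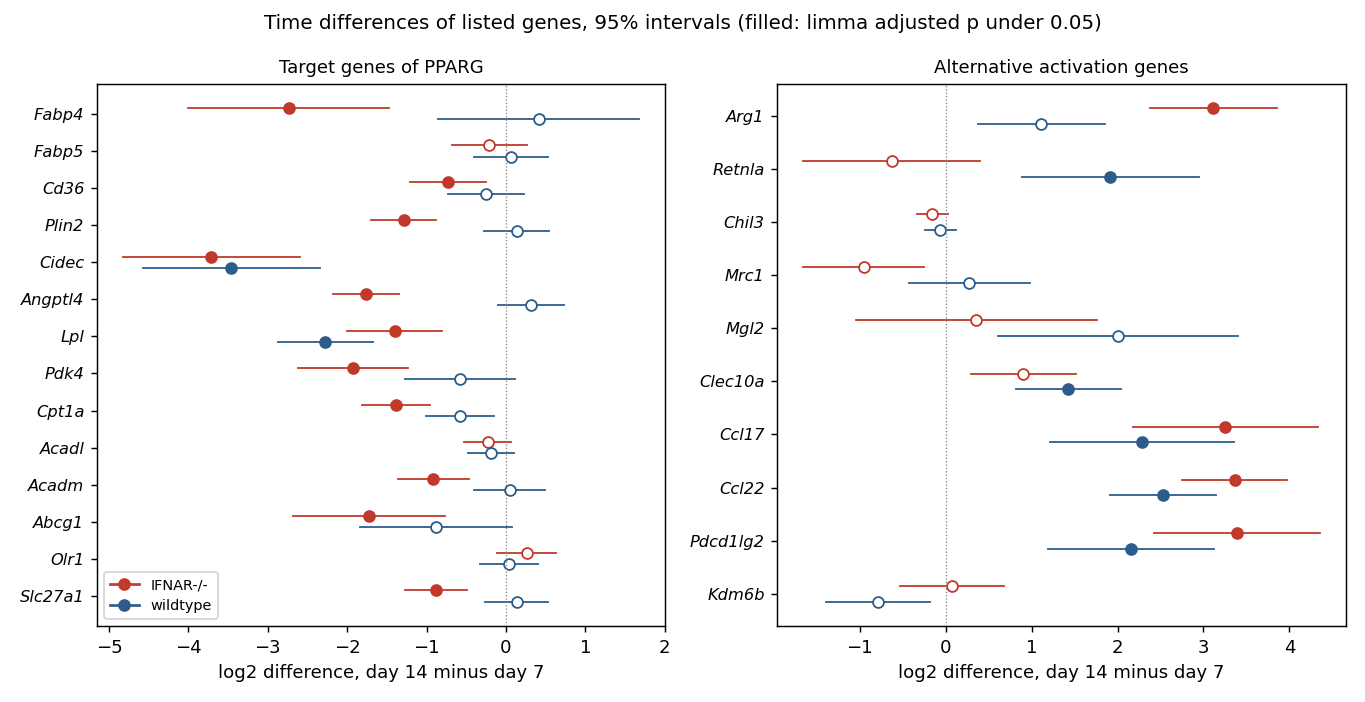
Day 14 minus day 7 log2 differences (x axis) of the listed PPARG target genes (left) and alternative activation genes (right) in IFNAR-/- and wildtype mice, with 95% intervals and filled points where the limma adjusted p was under 0.05. On the left 11 of 14 points are filled in IFNAR-/- mice and 2 of 14 in wildtype mice, and on the right 4 of 10 and 5 of 10.

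Of 10 genes of alternative activation, which IRF4 and KLF4 are known to serve, 4 rose over time in IFNAR-/- mice, with a median difference of 0.63, against 4.08% of all genes higher, and 5 rose over time in wildtype mice, with a median of 1.67, against 3.88%. None of the 10 was called lower in either. Above 0 were 7 of 10 in IFNAR-/- mice and 8 of 10 in wildtype mice. Below 0 in IFNAR-/- mice, and not called, were Mrc1 (-0.95 ± 0.32, limma adjusted p = 0.0776), Retnla (-0.63 ± 0.47, 0.387) and Chil3 (-0.16 ± 0.082, 0.232). Called higher in IFNAR-/- mice were Ccl22 and Ccl17, ligands of CCR4, at 3.36 ± 0.28 and 3.25 ± 0.49 (limma adjusted p = 0.000160 and 0.00239). The others were Arg1, the arginine-degrading enzyme, at 3.12 ± 0.34 (0.000654), and Pdcd1lg2, a ligand of PD-1, at 3.39 ± 0.44 (0.00134). In wildtype mice Ccl22, Clec10a, Pdcd1lg2 and Ccl17 had the lowest p, at 2.53 ± 0.28, 1.43 ± 0.28, 2.15 ± 0.44 and 2.28 ± 0.49 (limma adjusted p = 0.00110, 0.0118, 0.0147 and 0.0178). The wildtype count was 2 to 6 when single arrays were left out, lowest without wildtype day 14 mouse 1 and 3 without wildtype day 7 mouse 2 or wildtype day 14 mouse 3. It was 2 in the fit with poly-A signal and 1 in the fit with the 5′ to 3′ balance.

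At day 7, 3 of these 10 genes were lower in IFNAR-/- than in wildtype mice, against 1.35% of all genes lower. They were Arg1 (-2.32 ± 0.34, limma adjusted p = 0.00471), Pdcd1lg2 (-2.53 ± 0.44, 0.0127) and Ccl22 (-1.37 ± 0.28, 0.0272), and the same 3 were lower over both days (-1.32 ± 0.24, -1.92 ± 0.31 and -0.95 ± 0.20). Over both days 4.19% of all genes were called in either direction. The day 7 count was 1 without IFNAR-/- day 7 mouse 2. At day 14 limma called 0 of 10, against 5.04% of all genes, with 4 at an unadjusted p under 0.05. The median of the 10 genes was -0.049 at day 7 and -0.54 at day 14. At day 7, 4 of the 10 were above 0, among them Retnla (1.23 ± 0.47, limma adjusted p = 0.240), which was not called.

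Markers of other cell types differed in some of the same comparisons as Irf4. Of 11 dendritic cell markers measured, 7 were lower and 0 higher in IFNAR-/- mice at day 7, with a median of -1.08, against 1.35% of all genes lower. Over time in IFNAR-/- mice 6 rose and 0 fell, with a median of 0.77, against 4.08% of all genes higher. In the other 2 comparisons they differed where Irf4 was not called. At day 14, 3 were higher and 0 lower, with a median of 0.33, against 1.75% of all genes higher, while Irf4 was at -0.042. That Irf4 value is the mean of -0.74 and 0.65 for its 2 probe sets, neither called. Over time in wildtype mice 3 fell and 1 rose, with a median of -0.64, against 4.1% of all genes lower, while Irf4 was at 0.33. Its 2 probe sets were at 1.00 and -0.35 there, neither called, so the gene mean does not settle how Irf4 stood beside these markers. The median log2 ratio of the dendritic cell markers per array was -0.52 to -0.35 in IFNAR-/- mice against 0.11 to 0.39 in wildtype mice at day 7. At day 14 it was 0.056 to 0.34 in IFNAR-/- mice against -0.37 to -0.099 in wildtype mice.

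T cell markers and markers of monocytes and interstitial macrophages differed as well, and the labels give a lymphocyte share below 5%. Of 9 T cell markers, 5 rose and 0 fell over time in IFNAR-/- mice, with a median of 1.07, against 4.08% of all genes higher. At day 14, 4 were higher and 0 lower in IFNAR-/- mice, with a median of 0.84, against 1.75% of all genes higher. At day 7 limma called 0 of the 9, against 2.64% of all genes, with 5 at an unadjusted p under 0.05 and a median of -0.64. Over time in wildtype mice it called 0, against 7.98% of all genes, with 3 at an unadjusted p under 0.05 and a median of -0.47. The median log2 ratio of the T cell markers per array was -0.78 to -0.34 in IFNAR-/- mice against -0.056 to 0.43 in wildtype mice at day 7. At day 14 it was 0.21 to 0.85 in IFNAR-/- mice against -0.35 to -0.11 in wildtype mice. Of 9 monocyte and interstitial macrophage markers, 3 were lower and 0 higher in IFNAR-/- mice at day 7, with a median of -0.42, against 1.35% of all genes lower. At day 14, 2 were higher and 0 lower, with a median of 0.091, against 1.75% of all genes higher. Over time 4 of these rose and 0 fell in IFNAR-/- mice, with a median of 0.76, against 4.08% of all genes higher. In wildtype mice 0 rose and 2 fell, with a median of 0.042, against 4.1% of all genes lower. Their median log2 ratio per array was -0.48 to -0.025 in IFNAR-/- mice against -0.18 to 0.54 in wildtype mice at day 7. At day 14 it was -0.0040 to 0.26 in IFNAR-/- mice against -0.39 to 0.29 in wildtype mice. The ratios cannot show which of these markers is absent. The part of these 3 marker lists in the differences of Irf4 and of the alternative activation genes was not tested.

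Of 10 myeloid target genes of the C/EBP factors, limma called 0 over time in IFNAR-/- mice, where Cebpa and Cebpb fell. The median there was 0.031, and 0 of 10 had an unadjusted p under 0.05, against 12.3% of all genes called. In wildtype mice 4 of 10 fell over time, with a median of -0.997, against 4.1% of all genes lower. They were Il1b (-2.57 ± 0.21, limma adjusted p = 0.000247), the lysozyme gene Lyz2 (-0.78 ± 0.11, 0.00323), the endotoxin co-receptor Cd14 (-1.21 ± 0.24, 0.0137) and Il6 (-3.09 ± 0.77, 0.0323). At day 14, 4 of 10 were higher in IFNAR-/- than in wildtype mice, with a median of 0.97, against 1.75% of all genes higher. They were Il1b (2.35 ± 0.21, limma adjusted p = 0.000904), Lyz2 (0.76 ± 0.11, 0.00774), Cd14 (1.19 ± 0.24, 0.0221) and the iron-binding lipocalin Lcn2 (3.60 ± 0.78, 0.0269). Il1b was also called for the change between days (2.66 ± 0.30, limma adjusted p = 0.00523), against 2.48% of all genes. The day 14 count was 2 without IFNAR-/- day 14 mouse 1 and 1 in the fit with the 5′ to 3′ balance, and the wildtype count over time was 2 without wildtype day 7 mouse 2 and 2 in that fit. At day 7 0 of 10 were called, against 2.64% of all genes, and 1 had an unadjusted p under 0.05. Over both days 3 of 10 were higher and 0 lower, against 4.19% of all genes called in either direction.

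Of 6 ligands of the CSF receptors, limma called 0 between genotypes, with 1 at an unadjusted p under 0.05 on each day, where 2.64% of all genes were called at day 7 and 5.04% at day 14. Csf1, the ligand of CSF1R, rose over time in IFNAR-/- mice (2.04 ± 0.30, limma adjusted p = 0.00211), and Il34 rose over time in wildtype mice (0.49 ± 0.13, 0.0447). Each was 1 of 6, against 4.08% and 3.88% of all genes higher. Of 6 other receptors of these families, Flt3, the receptor of dendritic cell precursors, was lower in IFNAR-/- mice at day 7 (-0.75 ± 0.15, limma adjusted p = 0.0284), against 1.35% of all genes lower. It rose over time there (0.60 ± 0.15, limma adjusted p = 0.0292), against 4.08% of all genes higher. The list had no other call, and Flt3 is counted among the dendritic cell markers as well.

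Of 10 genes of CSF receptor signalling, the kinase Jak2 and the STAT5 feedback gene Cish were lower in IFNAR-/- mice at day 7, against 1.35% of all genes (-1.10 ± 0.21 and -0.78 ± 0.18, limma adjusted p = 0.0193 and 0.0435). At day 14 the kinase Pim1 was higher (1.04 ± 0.20, limma adjusted p = 0.0179), against 1.75% of all genes. Over both days Jak2 was lower (-0.77 ± 0.15, limma adjusted p = 0.0160), against 4.19% of all genes called in either direction. Over time in IFNAR-/- mice, Cish, Jak2 and the ubiquitin ligase Cbl rose (1.39 ± 0.18, 1.60 ± 0.21 and 1.24 ± 0.22, limma adjusted p = 0.00126, 0.00134 and 0.00590) and Stat5b fell (-0.56 ± 0.15, 0.0388), against 4.08% of all genes higher and 8.25% lower. In wildtype mice Cbl and Jak2 rose (1.09 ± 0.22 and 0.94 ± 0.21, limma adjusted p = 0.0150 and 0.0205) and 3 of 10 fell, against 3.88% of all genes higher and 4.1% lower, among them the phosphatase Ptpn6 (-0.71 ± 0.12, 0.00566) and Pim1 (-0.94 ± 0.20, 0.0167). Ptpn6 was called for the change (0.79 ± 0.17, limma adjusted p = 0.0344), against 2.48% of all genes. The medians of the list lay between -0.30 and 0.60 over the 6 comparisons.

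Of 19 related transcription factors measured, 2 were lower in IFNAR-/- mice at day 7, against 1.35% of all genes, Bhlhe40 (-0.98 ± 0.18, limma adjusted p = 0.0184) and the dendritic cell factor Irf8 (-1.14 ± 0.25, 0.0378). Irf8 is counted among the dendritic cell markers as well. At day 14 Klf2 was higher (1.46 ± 0.35, limma adjusted p = 0.0398) and Cebpg lower (-0.51 ± 0.12, 0.0399), against 5.04% of all genes called in either direction. Over time in IFNAR-/- mice 4.08% of all genes rose and 8.25% fell. Of the 19 factors 2 rose there, Bhlhe40 (1.25 ± 0.18, limma adjusted p = 0.00211) and Irf5 (0.56 ± 0.095, 0.00429), and 5 fell, among them Cebpg (-0.65 ± 0.12, 0.00717) and Runx1 (-0.74 ± 0.17, 0.0186). In wildtype mice 0 rose and 6 fell, against 3.88% and 4.1% of all genes, with the lowest p for Klf2 (-1.77 ± 0.35, limma adjusted p = 0.0136), Egr2 (-1.14 ± 0.23, 0.0147), Bhlhe41 (-0.49 ± 0.12, 0.0335) and Irf8 (-1.01 ± 0.25, 0.0335). The change was called for Irf8 (1.77 ± 0.36, limma adjusted p = 0.0293), Cebpd (-1.28 ± 0.28, 0.0432) and Cebpg (-0.76 ± 0.17, 0.0477), against 2.48% of all genes. The medians of the list lay between -0.23 and 0.094.

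The genes whose log2 ratios were most like those of a member over the 12 arrays are given as a description. Each Pearson r below is over 12 arrays that share groups and normalization. For Irf4 they were Ptpre (0.955), Bhlhe40 (0.942) and Csf1 (0.928), for Klf4 Egr2 (0.951), Ctsc (0.943) and Pbrm1 (0.940), and for Pparg Reps2 (0.979), Rras2 (0.965) and Tns1 (0.965). For Maf they were Ccl25 (0.954), Ccl12 (0.938) and D13Ertd608e (0.927), for Cebpa Myo9a (0.903), Fam168b (0.892) and Dstyk (0.892), and for Cebpb Ggcx (0.925), Kifc3 (0.919) and Dvl1 (0.914). For Csf1r they were Mup5 (0.864), Hsf4 (0.862) and Pip5k1bos (0.859), for Csf2ra Tet2 (0.966), Top1 (0.961) and Ppp1r12a (0.943), and for Csf2rb Wee1 (0.936), Dsel (0.930) and Orm1 (0.915). Without 2 arrays the r of these 27 genes ranged from 0.788 (Hsf4) to 0.978 (Dsel).

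Taking the means in order, Irf4 was highest in wildtype day 14 mice (0.43 ± 0.16, SD, n = 3), then IFNAR-/- day 14 (0.39 ± 0.58) and wildtype day 7 (0.10 ± 0.82). Lowest was IFNAR-/- day 7 (-1.52 ± 0.0041), where the small SD is that of a mean of 2 probe sets moving in opposite directions. Only the last step had no overlap between neighbours. For Klf4 the order was wildtype day 7 (0.88 ± 0.20), IFNAR-/- day 7 (-0.071 ± 0.10), IFNAR-/- day 14 (-0.37 ± 0.98) and wildtype day 14 (-1.05 ± 0.064), and only the first step had none. For Cebpa and Maf only the step to the lowest group had no overlap, IFNAR-/- day 14 for Cebpa (-0.68 ± 0.049) and IFNAR-/- day 7 for Maf (-0.53 ± 0.097). For Cebpb only the step from the highest group, IFNAR-/- day 7 (0.46 ± 0.21), had none. Neighbouring groups overlapped at every step for Pparg, which was highest in IFNAR-/- day 7 mice (1.14 ± 0.22) and lowest in wildtype day 14 mice (-0.59 ± 0.26), and for the 3 receptor chains.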

How the data were processed

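Total RNA of lung CD11c+ cells was hybridised to 12 Affymetrix mouse arrays, with 1 mouse to an array and 3 mice in each of 4 groups. Per the submitters' processing notes the authors used RMA, with no version given. The deposited values are linear ratios of each probe set to about its own median over the 12 arrays: this was read from the values, since the median lay within 0.02 of 1 for 100% of 45101 probe sets, and no label states it. Levels and signal over background therefore cannot be given, and precision is limited by having 12 arrays.

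Log2 ratios were used with no further normalization or filter. Probe sets were named by the platform annotation given, with symbols updated by Entrez identifier through the RefSeq table of GRCm38.p6: 34945 had 1 symbol and 932 several, which were left out, as were control probe sets. Probe sets of a gene were averaged, giving 18193 genes. A model with 1 mean per group was fitted with limma 3.58.1 in R 4.3.3 (8 residual degrees of freedom, prior 3.21), two-sided, with Benjamini-Hochberg adjustment over all genes and 0.05 as the threshold. It was tested on simulated data. Each mouse is a separate sample per the labels.

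The 9 genes, the lists of pathway genes and markers, and the arrays said to stand apart were chosen with earlier results of these data known. All 9 genes were named in every comparison, of each pathway list at most the 4 called genes with the lowest p per comparison, and for each of the 9 genes the 3 with the highest Pearson r. Alternatives were another choice of probe set, single probe sets, quantile normalization, median subtraction, a trended robust prior, array weights, mouse number as a block, arrays left out, only the arrays compared, poly-A and 5′ to 3′ covariates, and a fold threshold of 2. One of the pathway lists is not reported here. The 7 list counts followed under these alternatives were picked after their values were seen. Some lists share genes, so their counts are not separate results. Irf8 and Flt3 are also dendritic cell markers. Cd14 is on the monocyte and C/EBP lists, and Mrc1 on the alveolar macrophage and alternative activation lists.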

Additional observations from a re-analysis of the deposited data

How the results depend on the processing

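Of 54 differences of single genes, 1224 values under the alternatives were computed: 1066 kept direction and side of the threshold, 67 lost a call, 35 gained one and 56 changed sign. Irf4 over time in IFNAR-/- mice was called under every alternative run. The cause of the changes below was not tested. Over all genes limma called 481 at day 7 (210 to 1882 under the alternatives), 917 at day 14 (37 to 1899), 762 over both days (376 to 2221), 2244 over time in IFNAR-/- mice (1041 to 4576), 1451 over time in wildtype mice (154 to 2688) and 451 for the change (3 to 1765). The highest count of each was with array weights, and the lowest at day 14, over time in wildtype mice and for the change was with the 5′ to 3′ covariate.

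Counts of the 9 genes past the threshold were 2 at day 7, 0 at day 14, 1 over both days, 4 over time in IFNAR-/- mice, 1 over time in wildtype mice and 0 for the change. With single arrays left out they were 0 to 3, 0 to 1, 0 to 2, 3 to 4, 1 to 3 and 0 to 1. At day 7 the count was 1 with the probe set of largest SD, quantile normalization, only the arrays compared, a 2-fold threshold, single probe sets, the replicate block or without the arrays that stand apart (2 or 3 of them), 4 with array weights, and 0 with either covariate. At day 14 it was 2 with array weights, and 1 with single probe sets or without the arrays that stand apart. Over both days it was 3 with array weights, the probe set of largest SD or single probe sets, and 0 with a 2-fold threshold, the replicate block or without the arrays that stand apart. Over time in IFNAR-/- mice it was 2 with a 2-fold threshold and 1 without the arrays that stand apart. Over time in wildtype mice it was 3 with array weights, 2 with single probe sets or the replicate block, and 0 with either covariate. For the change it was 2 with array weights, and 1 with quantile normalization or without the arrays that stand apart.

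Counts of listed genes, an alternative added after seeing the data, were as follows with single arrays left out. PPARG target genes that fell were 8 to 11 in IFNAR-/- and 2 to 3 in wildtype mice, and alternative activation genes that rose were 4 to 5 in IFNAR-/- and 2 to 6 in wildtype mice. Alternative activation genes lower at day 7 were 1 to 3, C/EBP target genes that fell in wildtype mice were 2 to 5, and those higher at day 14 were 2 to 4. PPARG target genes that fell in wildtype mice were 4 with array weights and 1 with either covariate. Alternative activation genes that rose in wildtype mice were 2 with the poly-A and 1 with the 5′ to 3′ covariate, and those lower at day 7 were 1 with quantile normalization or only the arrays compared. C/EBP target genes were 2 (fell in wildtype mice) and 1 (higher at day 14) with the 5′ to 3′ covariate.

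The sign changes were these, none of them of a called difference. With array weights: Cebpa -0.039 at day 7, Irf4 0.36 and Csf2ra 0.045 at day 14, Klf4 0.15 and Csf2ra 0.10 over both days, Klf4 0.18 over time in IFNAR-/- and Cebpb 0.070 in wildtype mice. With quantile normalization: Irf4 0.33 at day 14, Csf2ra 0.029 over both days and Cebpb 0.11 over time in wildtype mice. With the probe set of largest SD: Klf4 0.036 and Csf1r 0.074 over both days and Maf 0.12 for the change. With the 5′ to 3′ covariate: Irf4 0.0031 at day 14, Cebpa 0.086, Cebpb 0.0024 and Csf2ra 0.10 over time in wildtype mice, and Csf2rb 0.12 for the change. With the poly-A covariate: Csf2ra 0.0006 over both days, Csf1r 0.20 and Csf2rb 0.094 over time in wildtype mice. Without both arrays that stand apart: Irf4 0.24 and Csf2ra 0.051 at day 14, Klf4 0.18, Csf1r 0.057 and Csf2ra 0.059 over both days, Klf4 0.21 over time in IFNAR-/- mice and Maf 0.020 for the change. Without wildtype day 7 mouse 1 as well: Irf4 0.24 and Csf2ra 0.051 at day 14, Klf4 0.22, Csf1r 0.065 and Csf2ra 0.10 over both days, Klf4 0.21 over time in IFNAR-/- mice and Maf 0.097 for the change.

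With single arrays left out, ranges that cross 0 were, at day 14, Pparg -0.13 to 0.33, Cebpb -0.0076 to 0.24, Irf4 -0.33 to 0.24 and Csf2ra -0.22 to 0.051. Over both days they were Klf4 -0.30 to 0.15, Csf1r -0.097 to 0.050 and Csf2ra -0.053 to 0.083, and over time in IFNAR-/- mice Klf4 -0.64 to 0.26. Over time in wildtype mice they were Cebpa -0.26 to 0.055, Cebpb -0.13 to 0.12, Irf4 -0.13 to 0.68 and Csf1r -0.29 to 0.0031, and for the change Maf -0.32 to 0.057 and Csf2rb -0.24 to 0.014.

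Mouse numbers were not used to pair samples in the main fit. Over 18 pairs of the same number the correlation of residuals was -0.397 to 0.232, with 3 over 0.1. These values cannot exclude pairing, since residuals from a mean of 3 arrays are tied and pairs of unlike number were not compared. Signal over background is not known, so what dim probe sets limit cannot be given.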
